A study of Homo sapiens with 6 samples.

Results

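Fatty acid desaturases and elongases are the enzymes that set the number of double bonds and the length of the acyl chains in membrane lipids. The genes described here are SCD, SCD5, FADS1, FADS2, FADS3, ELOVL1, ELOVL2, ELOVL5, ELOVL6 and ELOVL7, 10 of the 36459 gene symbols in the deposited gene count table, chosen by symbol. RNA was sequenced from PC9 cells, an established human non-small cell lung cancer line that depends on a mutant, active EGFR, in 2 states. The PC9 group holds 3 libraries of untreated parental cells, from 3 independent cultures. The PSPC9 group holds 3 libraries of persister cells, those left after 6 days in 15 µM of the EGFR inhibitor erlotinib. For these, 9 cultures were pooled into 3 replicates. The spread between PSPC9 libraries is therefore one between pools, and the spread between PC9 libraries one between single cultures. Both groups come from the same line with no other alteration named in the labels, and the effect of the drug and the selection of the cells that outlast it cannot be told apart in this design. In bulk RNA, fewer cells that express a gene and less of its RNA per cell cannot be told apart either.

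Desaturases of the delta-9 kind, SCD and SCD5, place the initial double bond in saturated acyl-CoA and so make monounsaturated fatty acids such as oleate. FADS2 and FADS1 act in turn on the essential fatty acids from the diet, with the elongases ELOVL5 and ELOVL2 between and after them, to make long polyunsaturated fatty acids such as arachidonate. ELOVL6 lengthens palmitate to stearate, ELOVL1 and ELOVL7 extend saturated and monounsaturated chains further, and FADS3 desaturates the sphingoid base of ceramides. Polyunsaturated chains are the ones most easily oxidized in a membrane, while monounsaturated chains resist oxidation, and the balance between both arms is studied in ferroptosis, a death by lipid peroxidation. The comparison of PSPC9 with PC9 asks how the persister state changes the mRNA of each arm.

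Total gene counts were between 29476725 and 34893782 per library. Among the 10 genes, counting error is largest relative to the level for ELOVL2, which had the fewest counts. Other genes named below at a few CPM or less share that limit. As to the identity of the cells, the epithelial genes EPCAM, CDH1, KRT7, KRT8, KRT18 and KRT19 and the drug target EGFR were abundant in both groups, at a mean of 207 CPM (counts scaled to the TMM-adjusted library size) or more. Of these, KRT8, KRT18, KRT19 and EPCAM fell and CDH1, KRT7 and EGFR rose in PSPC9, with log2 fold changes between -1.03 and 0.60. Of the lung lineage genes, NKX2-1 had at most 1 count per library and NAPSA at most 11, and SFTPB fell from 4.18 to 1.23 CPM (edgeR adjusted p = 1.07e-06). The 10 markers of blood, endothelial, stromal and liver cells summed to between 19.6 and 20.6 CPM in PC9 and between 28.9 and 33.3 CPM in PSPC9. Within that sum the genes moved in both directions. COL1A1 rose from 10.2 to 28.3 CPM, while PECAM1 fell from 4.37 to 0.214 CPM (edgeR adjusted p = 4.52e-08) and ACTA2 from 4.2 to 1.98 CPM (edgeR adjusted p = 1.22e-04), and CD3E was at 0 in all 6 libraries. The part of these genes in the results below was not tested.

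Of the 10 genes, 6 were lower in PSPC9, 3 were higher and 1, ELOVL1, did not pass the limit, which was 0.01 for the Benjamini-Hochberg adjusted p in the quasi-likelihood test of edgeR over 14626 genes. This has to be read against a background in which 56.8% of all tested genes passed, 28.1% as lower and 28.7% as higher. Falls of more than 2-fold were seen for SCD, FADS2, ELOVL6 and FADS1, 4 of the 10, where 5.91% of all genes fell that far. ELOVL2 was the only gene of the 10 to rise by more than 2-fold, against 5.65% of all genes. FADS1 and FADS3 lay close to that limit. Without PC9 replicate 3 or PSPC9 replicate 1 the log2 fold change of FADS1 was -0.995 or -0.994, short of 2-fold, and without PC9 replicate 2 that of FADS3 was 1.07, past it. In 9 of the 10 genes no library of one group lay within the range of the other, which held for 71.3% of all genes tested. The median log2 fold change was -0.31 over the 10 genes and -0.0061 over all genes tested. Each arm held both a gene that fell by more than 2-fold and a gene that rose.

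**Figure D1:**
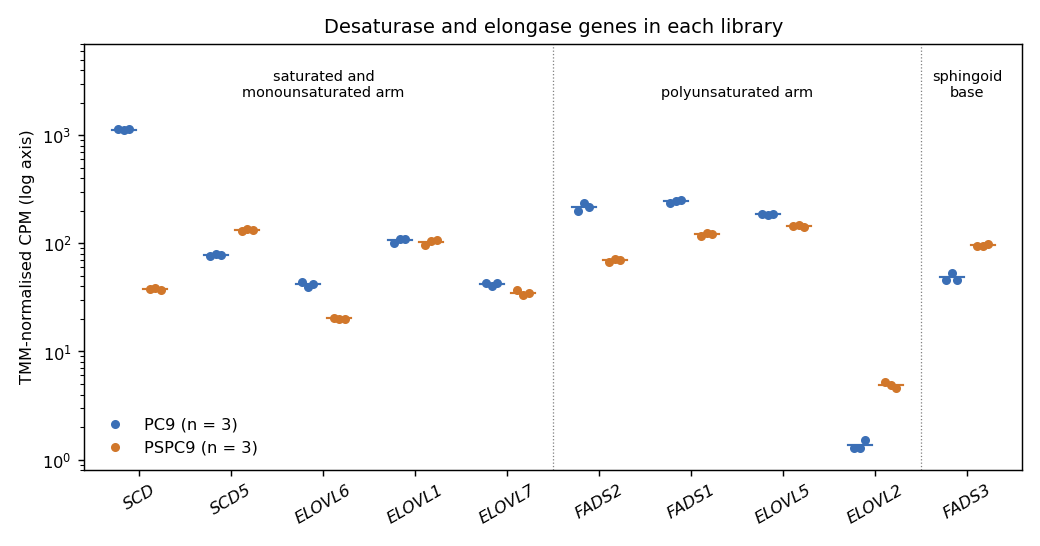
TMM-normalised CPM on a log axis for each of the 10 genes, with 1 point per library (3 PC9 libraries, 3 PSPC9 libraries) and a bar at the group mean. SCD moved from 1132 to 38.0 CPM, SCD5, ELOVL2 and FADS3 were higher in every PSPC9 library, and the groups overlapped for ELOVL1 alone.

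SCD (ENSG00000099194, chromosome 10 of GRCh38, 100347233 to 100364826, plus strand) is the main delta-9 desaturase of most human tissues. In the 3 PC9 libraries its level was 1133, 1129 and 1133 CPM, and in the 3 PSPC9 libraries it was 38.0, 38.8 and 37.2 CPM. These rest on 38156 to 38977 estimated counts per PC9 library and 1108 to 1270 per PSPC9 library. The parental libraries lay within a few CPM of each other, and every persister library was far below them. SCD was 29.8-fold lower in PSPC9, or -4.90 on the log2 scale (standard error, SE, 0.0388, edgeR adjusted p = 5.48e-14). By p-value SCD ranked 1 of the 14626 genes tested, and by the size of its fall it ranked 12. In terms of the library, SCD took between 0.115% and 0.116% of all gene counts in PC9 and between 0.00364% and 0.00378% in PSPC9. SCD had 1 transcript in the counts, the coding ENST00000370355, which therefore held all of them (1148 CPM in PC9 and 37.9 CPM in PSPC9). The processed pseudogene SCDP1 was assigned 0 counts in all libraries.

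SCD5 (ENSG00000145284, chromosome 4, 82629539 to 82798796, minus strand), the other human delta-9 desaturase, went the opposite way. Its level was 76.3, 79.6 and 78.6 CPM in PC9 and 131, 137 and 132 CPM in PSPC9, so that all persister libraries were above all parental libraries. The rise was 1.71-fold, or 0.77 on the log2 scale (SE 0.0385, edgeR adjusted p = 2.53e-08). Because the table compares genes of different length, levels of one gene against another are given as TPM, a measure that divides each transcript's count by its length and brings every library to the same total. The TPM of SCD and SCD5 together fell from 460 ± 8.94 (SD, n = 3) to 101 ± 1.67 (SD, n = 3). Of that sum, SCD5 made 10.5%, 10.9% and 10.7% in the PC9 libraries and 85.7%, 86.0% and 86.1% in the PSPC9 libraries. SCD5 was thus the smaller part of delta-9 desaturase mRNA in parental cells and the larger part in persister cells, with an absolute TPM of 49.1 ± 1.90 against 87.1 ± 1.28. The difference in share was 75.2 percentage points, with a two-sided exact permutation p = 0.1, the smallest that 3 against 3 libraries can give.

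The RefSeq sequence of the 250 bases before the start of SCD and of SCD5 is shown, since both genes encode the same activity and moved apart. Capitals mark the letters CCAAT on either strand, the box bound by NF-Y. SCD is chr10:100346983-100347232 on the plus strand and SCD5 is chr4:82798797-82799046 on the minus strand, both of GRCh38, written 5′ to 3′ along the gene.
SCD: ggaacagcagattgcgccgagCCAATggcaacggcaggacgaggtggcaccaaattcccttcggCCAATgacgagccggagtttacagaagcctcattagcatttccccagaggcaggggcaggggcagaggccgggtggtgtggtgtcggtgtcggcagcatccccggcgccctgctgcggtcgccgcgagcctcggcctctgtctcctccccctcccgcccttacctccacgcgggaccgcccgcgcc
SCD5: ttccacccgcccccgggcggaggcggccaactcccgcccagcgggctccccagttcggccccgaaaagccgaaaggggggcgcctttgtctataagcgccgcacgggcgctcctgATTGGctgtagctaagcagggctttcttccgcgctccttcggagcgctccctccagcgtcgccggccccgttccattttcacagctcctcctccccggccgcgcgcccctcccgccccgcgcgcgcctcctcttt
The SCD window held CCAAT in 2 places, at positions -229 and -186 from the start, and the SCD5 window held 1, at -135. Over 35116 RefSeq windows of this length, 32.0% held CCAAT at least 1 time and 9.53% held it 2 times or more. ELOVL5 and FADS3 also had 2 matches, ELOVL1 had 1, and the remaining 5 genes had none in their windows. The letters TCACNCCAC, 1 spelling of the sterol regulatory element, were in none of the 10 genes' windows and in 0.883% of all windows. Other spellings of that element, and bases beyond these windows, were not searched. CACGTG, an E-box, was in the ELOVL5 window alone among the 10 and in 6.34% of all. Both strands were searched for each motif. For FADS2, the windows searched were those before the starts of ENST00000278840 and ENST00000522056, given below, and before a RefSeq start further upstream. Among the genes with CCAAT, and likewise among those without it, some fell and some rose in PSPC9, and a match is a description of the letters only.

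ELOVL6 (ENSG00000170522, chromosome 4, 110045846 to 110199199), the elongase that makes stearate from palmitate and so supplies the delta-9 desaturases, fell with SCD. Its level was 43.99, 39.6 and 42.3 CPM in PC9 and 20.6, 20.1 and 19.9 CPM in PSPC9. All persister libraries were lower, by 2.08-fold (log2 fold change -1.05, SE 0.0537, edgeR adjusted p = 3.03e-08). ELOVL7 (ENSG00000164181, chromosome 5, 60751791 to 60844274), an elongase of very long saturated chains, fell less. It had 43.4, 40.3 and 42.6 CPM in PC9 and 36.9, 33.6 and 34.7 CPM in PSPC9, and its groups did not overlap. ELOVL7 changed by -0.26 on the log2 scale (SE 0.0518, edgeR adjusted p = 9.23e-04). ELOVL1 (ENSG00000066322, chromosome 1, 43363398 to 43368074), which makes the longest saturated and monounsaturated chains of sphingolipids, was at 101, 111 and 110 CPM in PC9 and 97.3, 104 and 107 CPM in PSPC9. These ranges overlap, and the log2 difference of -0.06 (SE 0.051, edgeR adjusted p = 0.316) was no larger than the spread between libraries. Within ELOVL1, the transcript ENST00000497050, for which no coding sequence is annotated, made 17.2% of the gene's counts in PC9 and 10.2% in PSPC9. The main coding transcript ENST00000372458 made 63.0% and 68.7%, and a change in transcript usage of ELOVL1 did not pass the limit (Simes adjusted p = 0.754 from edgeR's diffSpliceDGE).

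**Figure D2:**
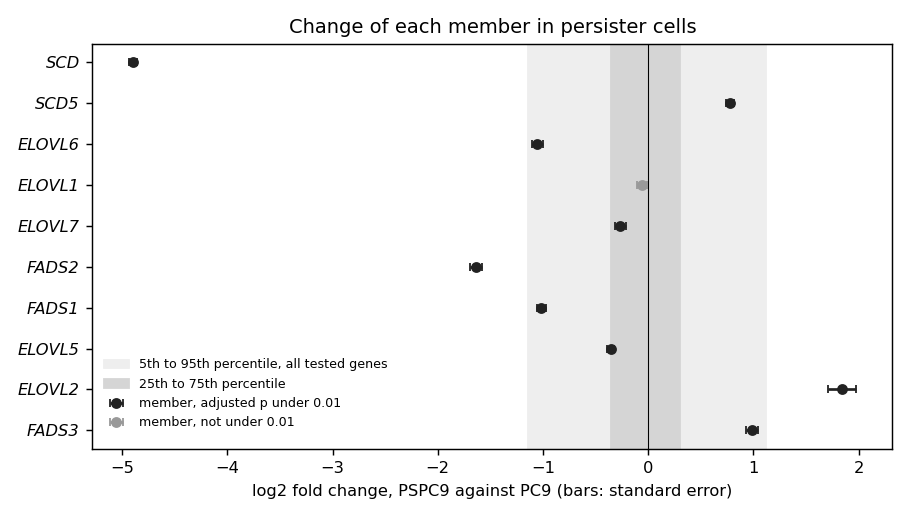
Log2 fold change of PSPC9 against PC9 for each gene, with bars of 1 standard error, over grey bands from the 25th to the 75th and from the 5th to the 95th percentile of all genes tested. SCD (-4.90) and FADS2 (-1.64) lie left of the wider band and ELOVL2 (1.84) right of it, while SCD5 (0.77), FADS3 (0.99), FADS1 (-1.01) and ELOVL6 (-1.05) lie inside it, near or toward its edges.

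The desaturases of the polyunsaturated arm both fell. FADS2 (ENSG00000134824, chromosome 11, 61792980 to 61867354, plus strand), the delta-6 desaturase that opens this pathway, had 200, 235 and 216 CPM in PC9 and 67.4, 71.9 and 69.6 CPM in PSPC9. FADS1 (ENSG00000149485, chromosome 11, 61799627 to 61829318, minus strand), the delta-5 desaturase that makes arachidonate, had 237, 245 and 252 CPM in PC9 and 118, 124 and 121 CPM in PSPC9. For both genes every persister library was below every parental library. FADS2 was 3.11-fold lower (log2 fold change -1.64, SE 0.0577, edgeR adjusted p = 1.68e-09) and FADS1 was 2.02-fold lower (-1.01, SE 0.0385, adjusted p = 3.05e-09). The elongases of the same arm moved in opposite directions. ELOVL5 (ENSG00000012660, chromosome 6, 53267398 to 53349179), which extends the products of FADS2, fell by 1.28-fold, from 189, 182 and 185 CPM to 145, 149 and 140 CPM (log2 fold change -0.36, SE 0.0371, edgeR adjusted p = 7.69e-06). ELOVL2 (ENSG00000197977, chromosome 6, 10980759 to 11044305), which extends the longest polyunsaturated chains on the way to docosahexaenoate, rose from a very low level. It had 44, 44 and 51 estimated counts in the PC9 libraries and 152, 155 and 156 in the PSPC9 libraries. As CPM, ELOVL2 was at 1.28, 1.29 and 1.51 in PC9 and 5.21, 4.92 and 4.57 in PSPC9, or 1.84 higher on the log2 scale (SE 0.133, edgeR adjusted p = 4.37e-07). It stayed the lowest of the 10 genes in both groups.

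FADS1, FADS2 and FADS3 are neighbours on chromosome 11, and FADS3 did not move with the other two. FADS3 (ENSG00000221968, chromosome 11, 61873519 to 61892051, minus strand) rose from 45.7, 53.6 and 46.2 CPM in PC9 to 95.1, 95.1 and 98.4 CPM in PSPC9. Its groups were far apart compared with the spread in either. The rise was 1.98-fold (log2 fold change 0.99, SE 0.0593, edgeR adjusted p = 1.04e-07). The annotated ends of FADS2 and FADS3 lie 6165 bases apart, so adjacent genes of the cluster changed in opposite directions.

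FADS2 was the only member with a change in transcript usage (Simes adjusted p = 7.05e-04 from edgeR's diffSpliceDGE, rank 93), where 1.88% of 10545 genes passed. Of the 10 genes, 8 had more than 1 transcript to test, and the other 7 had adjusted p-values of 0.754 or more. Leaving out PC9 replicate 3 moved the FADS2 value to 0.0249 and leaving out PSPC9 replicate 1 to 0.0105, both above the limit of 0.01. Most FADS2 counts were assigned to 3 coding transcripts that differ in the first exon and join the same exon 2 (chromosome 11, 61837778 to 61837888). ENST00000278840 begins at 61828300, and ENST00000257261 and ENST00000522056 begin at 61816256 and 61816404. The distance between the downstream start and the outermost of the upstream starts is 12044 bases. Since their first exons hold 207, 141 and 114 coding bases, in the order just given, the transcripts encode different amino-terminal ends and share the rest of the coding sequence. The junctions are shown because these letters tell the transcripts apart: the last 15 bases of exon 1 in lower case and the initial 15 bases of exon 2 in capitals, from the GENCODE 44 transcripts.
ENST00000278840: ggagaagatgcaacgGATGCCTTCCGCGCC
ENST00000257261: atcaccgggcaacagGATGCCTTCCGCGCC
ENST00000522056: gccacctcgtcccagGATGCCTTCCGCGCC

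ENST00000278840, with the downstream start, had 90.8, 135 and 125 CPM in PC9 and 20.04, 22.7 and 22.9 CPM in PSPC9. This transcript fell the most of the 3, by -2.42 on the log2 scale (SE 0.161, edgeR adjusted p = 4.35e-04), where 7.8% of 54499 transcripts passed, 3.91% as lower and 3.89% as higher. ENST00000257261, with the upstream start, had 39.4, 46.2 and 38.9 CPM in PC9 and 29.2, 26.9 and 26.9 CPM in PSPC9. It was lower by less, -0.59 on the log2 scale (SE 0.0844, edgeR adjusted p = 0.00692), and this call was lost whichever of the 6 libraries was left out, at adjusted p-values between 0.0121 and 0.0358. ENST00000522056 went from 64.7, 51.4 and 48.1 CPM to 15.2, 20.2 and 17.8 CPM (log2 fold change -1.63, edgeR adjusted p = 0.00153, and 0.0131 without PSPC9 replicate 3). The groups did not overlap for any of the 3 transcripts, and how often this held over all transcripts tested was not counted.

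**Figure D3:**
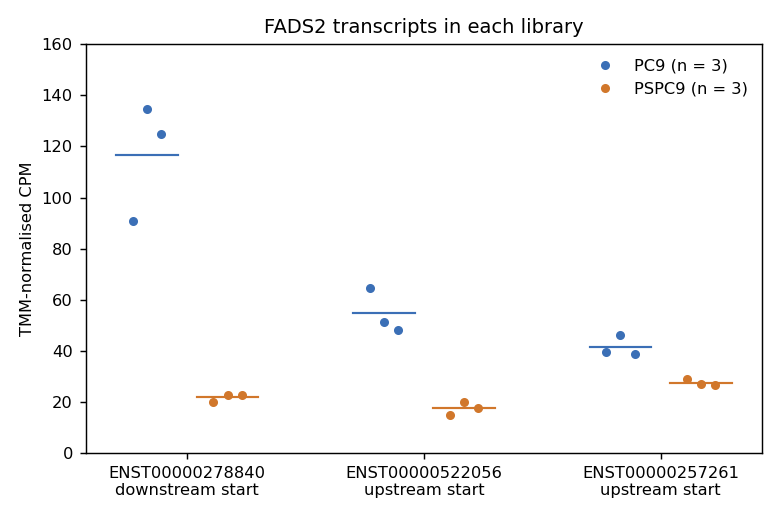
TMM-normalised CPM of the 3 main FADS2 transcripts, with 1 point per library (3 PC9, 3 PSPC9) and a bar at the group mean. The downstream-start transcript ENST00000278840 goes from the highest mean of the 3, 117 CPM, to 21.9 CPM, below ENST00000257261 at 27.7 CPM.

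As shares of FADS2 counts, ENST00000278840 went from 52.8% ± 6.62 (SD, n = 3) to 31.5% ± 1.501 (SD, n = 3) and ENST00000257261 from 18.9% ± 1.03 to 39.9% ± 3.16. ENST00000522056 held 25.2% ± 6.03 in PC9 and 25.5% ± 2.80 in PSPC9. Parental libraries thus had more counts on ENST00000278840 than on ENST00000257261, and persister libraries fewer. Over all transcripts with either start, the downstream share was 47.9%, 58.8% and 60.05% in PC9 and 33.3%, 33.7% and 35.5% in PSPC9. This grouping by start was made after the values had been seen and is given without a test. The first exon of ENST00000522056 overlaps the first exon of the main FADS1 transcript by 142 bases on the opposite strand, and the strand setting of the counting is not given in the sources used here. Reads of that stretch cannot be assigned to FADS1 or FADS2 with certainty, and FADS1 fell as well. Without ENST00000522056, the downstream share was 74.3% ± 3.18 in PC9 and 46.0% ± 2.50 in PSPC9. The first exons of the other 2 transcripts overlap FADS1 transcripts too, but these held at most 0.193% of FADS1 counts in any library.

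On the TPM scale the members changed order. In PC9 SCD led with 411 ± 7.05 TPM, followed by FADS2 at 169 ± 10.2 and ELOVL1 at 160 ± 10.3, which overlapped each other. ELOVL5 (131), FADS1 (124), FADS3 (58.5), SCD5 (49.1), ELOVL7 (21.5), ELOVL6 (14.4) and ELOVL2 (0.650) followed as mean TPM, each apart from its neighbour in every library. In PSPC9 the order of mean TPM was ELOVL1 (157), FADS3 (119), ELOVL5 (105), SCD5 (87.1), FADS1 (64.1), FADS2 (56.4), ELOVL7 (18.7), SCD (14.3), ELOVL6 (7.46) and ELOVL2 (2.43), and no neighbours overlapped. SCD thus went from the top place to the eighth on this scale. The order depends on the correction for length. As mean CPM in PSPC9, SCD (38.0) lay above ELOVL7 (35.1), and ELOVL1 (103) lay below ELOVL5 (145). Among all 36074 genes with a TPM, SCD moved from the 99.2nd to the 78.0th percentile, while FADS3 moved from the 91.8th to the 95.9th.

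The summed TPM of the 10 genes fell from 1139 ± 34.8 to 631 ± 1.71 (SD, n = 3 each), and without SCD from 728 ± 27.8 to 617 ± 1.37. SCD made 36.6%, 35.7% and 35.98% of the sum in the PC9 libraries and 2.32%, 2.27% and 2.20% in the PSPC9 libraries. That is a difference of -33.8 percentage points (two-sided exact permutation p = 0.1, the smallest this design allows). With SCD a smaller part of the sum, ELOVL1 went from 14.1% to 24.9% of it at levels of 160 and 157 TPM, and ELOVL5 from 11.5% to 16.6% while its level fell. FADS3 went from 5.14% to 18.8% of the sum and SCD5 from 4.31% to 13.8%, and both also rose in level. The TPM of FADS1, FADS2, ELOVL2 and ELOVL5 together fell from 424 ± 13.6 to 228 ± 5.07. Their share of the sum was 37.2%, 37.3% and 37.3% in PC9 and 36.6%, 36.5% and 35.2% in PSPC9, a difference of -1.13 percentage points (exact permutation p = 0.1). The direction of that small difference depends on the scale. As shares of counts with no correction for transcript length, the polyunsaturated share was higher in PSPC9 by 13.5 percentage points. The shares of SCD and SCD5 kept their direction on both scales.

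**Figure D4:**
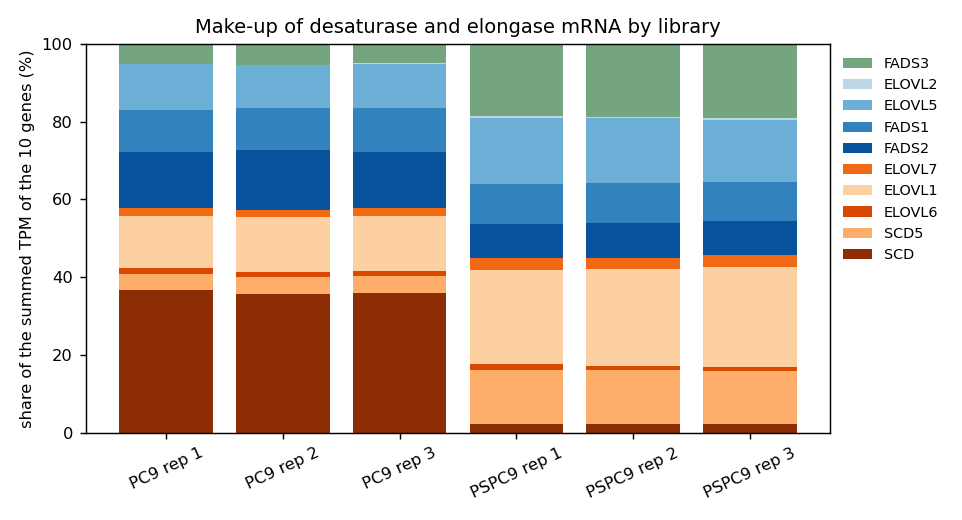
Share of each gene in the summed TPM of the 10 genes, in percent, as a stacked bar per library (3 PC9, 3 PSPC9), with warm colours for the saturated and monounsaturated arm, blue for the polyunsaturated arm and green for FADS3. SCD fills 35.7% to 36.6% of the PC9 bars and 2.20% to 2.32% of the PSPC9 bars, where SCD5, ELOVL1 and FADS3 take larger parts.

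Elongases work in a cycle with a ketoreductase, dehydratases and an enoyl reductase that all chains share. Of these 6 partner genes, 3 were lower, 1 was higher and 2 did not pass, with a median log2 fold change of -0.18, so that the share called was near the 56.8% of all genes. The reductases HSD17B12 (-0.44, edgeR adjusted p = 1.58e-05) and TECR (-0.32) and the dehydratase HACD3 (-0.39) were lower, while the dehydratase HACD2 rose from 144 to 271 CPM (0.91, adjusted p = 1.56e-08). The desaturases draw electrons from cytochrome b5 and its reductases. Of 6 such genes, 1 fell and 2 rose, with a median of -0.06, again near the 56.8% called among all genes. CYB5A, the microsomal cytochrome b5, was lower (-0.29) and the reductases CYB5R1 (0.87) and CYB5R4 (0.29) were higher. CYB5R3, at 171 and 183 CPM the most abundant reductase of the list, did not pass (0.10, edgeR adjusted p = 0.113). The change in elongation partners and electron donors was smaller than 2-fold for every gene tested.

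Other desaturases and elongases were mostly low in these cells. Of 8 listed genes 5 were tested, and 2 were higher, 1 lower and 2 did not pass, a share called near the 56.8% of all genes. DEGS1, the desaturase that completes ceramide, rose 2.43-fold, from 33.9, 32.0 and 34.5 CPM to 80.8, 81.7 and 81.3 CPM (log2 fold change 1.28, edgeR adjusted p = 1.26e-09). Both desaturases of the sphingolipid pathway with enough counts, DEGS1 and FADS3, were higher in all PSPC9 libraries. Over all genes tested, 28.7% passed as higher and 71.3% had groups that did not overlap. The pair comes from separate lists and was not tested as a set. FA2H, which hydroxylates the acyl chain of sphingolipids, was at 7.11 and 8.96 CPM (0.33, edgeR adjusted p = 0.00314, and up to 0.016 with PSPC9 replicate 2 or 3 left out). The FA2H call was also lost with DESeq2 (adjusted p = 0.0191). MSMO1, a sterol oxidase related to the desaturases, was lower (log2 fold change -0.30, edgeR adjusted p = 4.31e-05).

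The palmitate that these enzymes use is made by acetyl-CoA carboxylase and fatty acid synthase. Of the 10 genes on this list 8 were tested, and 3 fell, 1 rose and 4 did not pass (median -0.13), a share called near that of all genes, 56.8%. FASN went from 472 ± 56.1 to 211 ± 11.9 CPM (log2 fold change -1.16, edgeR adjusted p = 2.12e-07), ACACA was lower (-0.72) and so was ACSS2, which makes acetyl-CoA from acetate (-0.89). ACACB, the carboxylase at the mitochondrion, was higher (0.82). ACLY, which makes cytosolic acetyl-CoA from citrate, had 248 CPM in PC9 and 247 CPM in PSPC9, or -0.01 on the log2 scale (edgeR adjusted p = 0.856). SCD therefore fell by more than any tested gene of palmitate synthesis, on the log2 scale.

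Transcription of SCD, FADS1, FADS2 and ELOVL6 is known to respond to SREBP-1, the LXR receptors and the PPARs. Of 16 genes on the list of these regulators and their partners, all tested, 8 were lower, 3 were higher and 5 did not pass (median -0.24), where 28.1% of all genes were lower and 28.7% higher. SREBF1, which encodes SREBP-1, fell 4.55-fold, from 237, 278 and 255 CPM to 55.4, 54.0 and 59.5 CPM (log2 fold change -2.19, SE 0.0623, edgeR adjusted p = 3.52e-10). No PSPC9 library came near the PC9 range for this gene. NR1H3, encoding the receptor LXR-alpha, was lower (-1.67), as were INSIG1 (-1.56) and INSIG2 (-0.73), which hold SREBP back in the endoplasmic reticulum and of which INSIG1 is itself an SREBP target. MLXIPL, encoding the carbohydrate sensor ChREBP, was lower at 4.76 and 1.88 CPM (-1.34), and PPARG (-0.95), SREBF2 (-0.59) and RXRA (-0.28) were lower too. MLXIP (0.46), SCAP (0.25) and the protease gene MBTPS1 (0.16) were higher. The call for MBTPS1 was lost without PC9 replicate 3 (adjusted p = 0.0101) and with scaling by library size only (adjusted p = 0.0152). NR1H2, encoding LXR-beta, had a log2 fold change of -0.04 and did not pass (edgeR adjusted p = 0.657).

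Acyl chains enter phospholipids through acyl-CoA ligases and lysophospholipid acyltransferases. Of 5 ligase genes 4 were tested, and 3 fell and 1 rose (median -0.49), against 28.1% lower and 28.7% higher over all genes. ACSL3 fell from 700.4 to 366 CPM (-0.93, edgeR adjusted p = 5.04e-09), and ACSL1 (-0.64) and ACSL5 (-0.34) were lower. ACSL4, which favours arachidonate and is needed for ferroptosis in many cells, was at 172, 159 and 162 CPM in PC9 and 184, 180 and 181 CPM in PSPC9. Its small rise (log2 fold change 0.15, edgeR adjusted p = 0.00708) did not pass without PC9 replicate 2 or 3, or with any of the PSPC9 libraries left out, at adjusted p-values from 0.0183 to 0.0385, nor with upper-quartile normalization (0.0452) or scaling by library size only (0.0531). Of 11 acyltransferase genes, 6 fell, 2 rose and 3 did not pass (median -0.21), with the same background. LPCAT3, which places polyunsaturated chains in phospholipids, was lower at 85.4, 89.3 and 85.7 CPM against 33.0, 34.9 and 36.8 CPM (log2 fold change -1.31, edgeR adjusted p = 2.72e-09). LPCAT4 (-1.06), MBOAT2 (-0.72), LPCAT2 (-0.48) and MBOAT7 (-0.21) were also lower. MBOAT1 was lower too (-0.36), with adjusted p-values of 0.0102, 0.0149 and 0.0163 without PC9 replicate 2, PSPC9 replicate 1 and PSPC9 replicate 3. With DESeq2 the adjusted p of MBOAT1 was 0.0139, also above the limit. LPCAT1, which places saturated chains, was higher (0.81), and so was LPGAT1 (0.28).

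**Figure D5:**
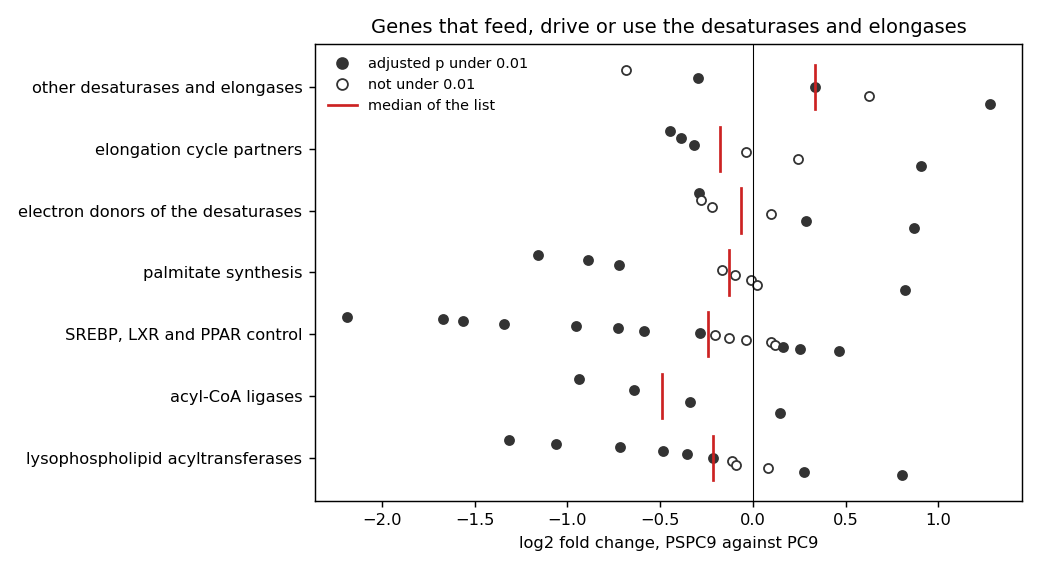
Log2 fold change of PSPC9 against PC9 for the tested genes of 7 lists around the desaturases and elongases, with 1 point per gene, filled where the adjusted p was under 0.01, and a red line at the median of the list. SREBF1 (-2.19) is the leftmost point and DEGS1 (1.28) the rightmost, and the list medians lie between -0.49 and 0.33.

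The genes with the pattern most like SCD over the 6 libraries were taken as those with the smallest Euclidean distance between centred log2 CPM values, among 12284 genes. For SCD these were TRIB2 (distance 0.893), AGR2 (0.965), ALDH1A1 (1.18), MILR1 (1.35) and ETV1 (1.45), all on the log2 scale. Their log2 fold changes ran from -3.86 for ETV1 to -5.78 for AGR2, and all 5 were far less abundant than SCD in PC9, at 8.94 to 17.4 CPM. In PSPC9 they were at 0.304 to 0.899 CPM, against 38.0 CPM for SCD. Their fold changes and distances therefore rest on few counts in that group. For FADS2 the nearest genes were NR1H3 (0.0822), ELFN2 (0.0867), ITGB4 (0.0979), S100A2 (0.114) and RHOF (0.118). NR1H3, also named above among the regulators, went from 24.3, 27.2 and 26.5 CPM to 7.74, 8.36 and 8.31 CPM. Over 6 libraries in 2 groups, these distances mostly measure how alike the sizes of the changes were.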

How the data were processed

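Bulk RNA of 3 PC9 and 3 PSPC9 libraries was analysed, grouped and numbered by the sample labels, while dose, day and culture numbers are those of the study's methods. Poly-A RNA was made into TruSeq libraries by the study, and RNA integrity was given as 10 for all samples. Per the labels and methods, the authors pseudoaligned paired-end reads with kallisto 0.46.1 to Ensembl transcripts of GRCh38.p13 and used sleuth 0.30.0 for their own tests. The authors deposited estimated counts for gene symbols and for transcripts, in whole numbers and not normalized. Kallisto divides reads between similar transcripts, and the uncertainty of that division enters no test here. Libraries of another laboratory were not analysed here.

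The tests used edgeR 4.0.16 under R 4.3.3 (filterByExpr, TMM, glmQLFTest without a block, Benjamini-Hochberg limit 0.01), transcript usage with diffSpliceDGE, and all genes were adjusted together. The SE of a log2 fold change is its absolute value over the root of F. TPM came from 167067 of 188753 transcripts matched to GENCODE 44, with 95.8% of transcript counts, and promoters from RefSeq on GRCh38. Shares were compared by exact permutation tests. Alternatives were DESeq2 1.42.0, limma 3.58.1 (voom), other normalizations, filters and lengths, a replicate block, and each library left out. The tests were tested on simulated data. The members and lists were chosen with earlier results of these data known. Named genes were the 10 members, list genes past the limit or up to 5 per list with the smallest p-values, the 5 genes nearest in pattern to SCD and FADS2, and transcripts with 5% or more of a member's counts in any library. Cell type markers came from separate lists. Genes outside these rules (NR1H2, CYB5R3, ACLY, SCDP1) and the markers singled out were named after their values were seen. Peroxisomal genes, 1 further list, are not reported here.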

Additional observations from a re-analysis of the deposited data

How the results depend on the processing

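The count of 9 changed members was the same in all 16 alternatives, and the 10 members kept their direction in all of them. The number of changed genes ran from 7054 to 9931, against 8307, with 3604 higher and 4652 lower when scaled by library size only, against 4193 and 4114. Deviations of same-numbered libraries correlated at 0.124, 0.0236 and 0.0215, and those of unlike-numbered libraries at between -0.117 and 0.0971. With 3 libraries per group these values cannot decide whether the replicate numbers pair the libraries. With the replicate block 8671 genes, 9 members, 813 transcripts and 98 genes with changed usage passed. FADS2 usage had an adjusted p of 0.0183 with that block. The 4252 changed transcripts became 7989 with DESeq2 and between 1549 and 2649 with a library left out. The 198 genes with changed usage became 128 with a CPM of at least 1 in at least 3 libraries and 428 with the gene-level F test. The difference in SCD share was -32.0 percentage points with transcript lengths less 200 bases and -49.0 without length correction. For the polyunsaturated share it was -2.53 and 13.5, a reversal, and for the SCD5 share 71.4 without length correction. The difference in downstream FADS2 share, -21.4, was -28.3 without ENST00000522056 and -29.3 for the full-length pair, alternatives chosen after seeing the data. Transcripts that did not pass changed sign: ELOVL7 ENST00000505959 (0.13 with the block and -0.76 to 0.39 with a library left out), ELOVL1 ENST00000372458 (-0.034 to 0.0751), ELOVL7 ENST00000508821 (-0.19 to 0.027), FADS1 ENST00000433932 (-3.84 to 0.16) and ELOVL5 ENST00000542638 (-0.57 to 0.24). The cause of these changes was not tested. Among the 10 members, counting depth limits ELOVL2 most, with 44 to 51 counts per PC9 library.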
